A study of Arabidopsis thaliana with 17 samples.

Results

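The arm clusters of chromosomes 1, 3 and 5 are the places in the gene-rich chromosome arms of *Arabidopsis thaliana* at which 24 nt siRNAs accumulate. They were taken by position alone: a cluster belongs here when the TAIR10 position in its name lies on a left or right arm, at least 1 Mb from the chromosome end and outside the pericentromere. This gave 3286 of the 12939 clusters of the series, of which 565 lay on the left arm of chromosome 1 (1L, from position 1160187 to 11492949), 851 on 1R (17709448 to 29377020), 501 on 3L (1031060 to 10294966), 309 on 3R (17300245 to 22390869), 413 on 5L (1026445 to 8994170) and 647 on 5R (16003124 to 25967615). The arms held between 51.6 clusters per Mb (5L) and 72.6 clusters per Mb (1R), against 220 to 243 clusters per Mb in the 3 pericentromeres between them, which hold 4734 clusters.

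Small RNAs were sequenced from flowers of 6 genotypes, with 2 libraries each. These were the *nrpd1-3* mutant, which lacks the largest subunit of Pol IV; the *clsy quad* mutant, which combines the alleles *clsy4-1*, *clsy3-1*, *clsy2-1* and *clsy1-7*; *nrpd1-3* plants carrying an NRPD1-3xFLAG transgene under the NRPD1 promoter with CYC changed to AAA (NRPD1-3xF AAA-YPMF), with YPMF changed to AAAA (NRPD1-3xF CYC-AAAA) or with the CYC-YPMF motif intact (NRPD1-3xF WT); and the wild type Col-0. All transgenic plants lacked the endogenous NRPD1, and the transgenic lines described for the study were Basta-resistant second-generation plants chosen for strong expression, and the transgene sits at another site than the endogenous gene. The table holds no genes, so neither the loss of NRPD1 nor the flower tissue could be checked against transcripts. Values are the authors' RPKM of 24 nt reads per cluster. The paper gives all filtered reads as the library size of its count test and names no total for the RPKM. The reads behind each value are unknown because cluster lengths were not used here, and the 2 libraries per genotype limit the precision.

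As background, Pol IV makes short transcripts that RDR2 turns into double-stranded RNA and DCL3 cuts into 24 nt siRNAs, which then guide DNA methylation. The 4 CLSY proteins bring Pol IV to its targets, with a division of labour: siRNAs of the arms depend mostly on CLSY1 together with CLSY2, those around the centromeres mostly on the other pair. Many sites of the pathway in the arms are short transposon remnants and other repeats beside genes. A few 24 nt reads come from microRNA genes, whose hairpins are cut by DCL1 from Pol II transcripts and need neither Pol IV nor CLSY proteins.

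The sequences of the members differed in how often they occur in the genome. Windows of 150 bases from the named position are shown for 6 members around which the values below turn, on the plus strand of TAIR10, with capitals marking bases within a 24-base word found at more than 1 genome site. The first pair has the highest Col-0 level of arms 1L and 5L, and the second pair lies at the median level of arms 5L and 1L. The last pair was far lower (merged_1_24250883) or higher (merged_1_25577748) in NRPD1-3xF WT than in Col-0.
merged_1_4505225, chr1:4505225-4505374: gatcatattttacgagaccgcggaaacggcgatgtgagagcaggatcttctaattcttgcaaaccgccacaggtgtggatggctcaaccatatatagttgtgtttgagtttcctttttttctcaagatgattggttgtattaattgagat
merged_5_8813227, chr5:8813227-8813376: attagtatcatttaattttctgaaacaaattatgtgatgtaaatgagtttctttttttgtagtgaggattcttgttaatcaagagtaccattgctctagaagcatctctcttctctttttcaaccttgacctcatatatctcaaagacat
merged_5_2186850, chr5:2186850-2186999: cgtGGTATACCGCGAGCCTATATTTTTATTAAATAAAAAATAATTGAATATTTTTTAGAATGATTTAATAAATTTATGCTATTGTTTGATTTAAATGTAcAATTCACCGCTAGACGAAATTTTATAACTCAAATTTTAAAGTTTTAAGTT
merged_1_7036975, chr1:7036975-7037124: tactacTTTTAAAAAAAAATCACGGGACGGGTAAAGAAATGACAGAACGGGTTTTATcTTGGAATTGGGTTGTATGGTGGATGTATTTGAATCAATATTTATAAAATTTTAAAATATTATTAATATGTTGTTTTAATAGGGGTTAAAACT
merged_1_24250883, chr1:24250883-24251032: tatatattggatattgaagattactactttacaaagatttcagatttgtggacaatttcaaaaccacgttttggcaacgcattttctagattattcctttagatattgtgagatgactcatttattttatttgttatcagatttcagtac
merged_1_25577748, chr1:25577748-25577897: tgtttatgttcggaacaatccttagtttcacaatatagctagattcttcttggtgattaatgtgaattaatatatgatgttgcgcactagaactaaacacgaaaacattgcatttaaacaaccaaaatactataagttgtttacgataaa

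Both median-level windows were nearly all repeated sequence, with 97.3% and 95.3% of the bases in such words, and single words of them occurred at up to 27 and 103 genome sites, while the other 4 windows had none. Over the 300 bases from the named position of every arm cluster, the median share of single-copy 24-base words was 87.0%, 816 members (24.8%) were single-copy throughout, and 159 (4.84%) had fewer than 10% of such words. At 1567 members (47.7%) the window shared a 24-base word with the window of another member. The authors' mapping assigned a read that fits several places to a specific location among them, so the values of those members need not be independent. The windows were AT-rich, with a median GC content of 29.7%, against 34.0% in the pericentromere. By the RefSeq annotation of TAIR10.1, 2209 members (67.2%) began within 2 kb of a protein-coding gene and 509 (15.5%) inside one, of which 154 began in a coding exon, 179 in an intron and 176 in a UTR. A further 365 (11.1%) lay more than 2 kb from any protein-coding gene, 132 (4.02%) in a pseudogene or transposable element gene, 44 in another non-coding RNA gene and 27 within 500 bases of a microRNA gene. In the pericentromere 32.4% of the clusters were within 2 kb of a protein-coding gene and 19.0% in a pseudogene or transposable element gene.

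The first question was how far siRNAs in the arms depend on Pol IV, on the CLSY proteins and on the motif. The median arm cluster had 0.00 and 0.03 RPKM in *nrpd1-3*, 0.03 and 0.09 RPKM in *clsy quad*, 0.20 and 0.25 RPKM in NRPD1-3xF AAA-YPMF, 0.09 and 0.09 RPKM in NRPD1-3xF CYC-AAAA and 21.4 and 19.8 RPKM in NRPD1-3xF WT, against 22.3 and 20.7 RPKM in Col-0. All 4 mutants were thus near 0 in both libraries, and NRPD1-3xF WT overlapped Col-0. In single libraries, between 16.3% (NRPD1-3xF AAA-YPMF) and 56.8% (*nrpd1-3*) of the members were listed at 0 in the mutants, against at most 1.07% in NRPD1-3xF WT and at most 0.0304% in Col-0.

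**Figure D1:**
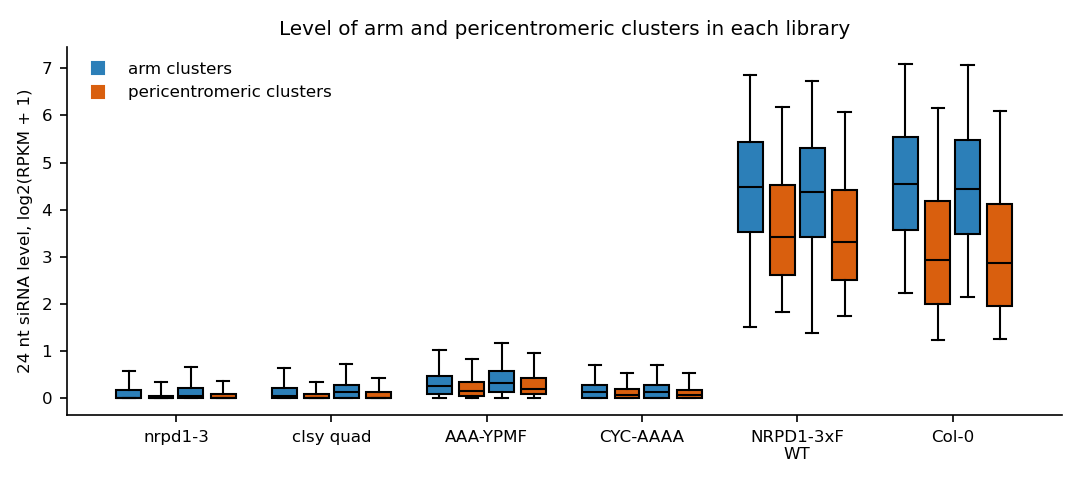
Level of 24 nt siRNAs in each library as log2(RPKM + 1), by genotype, for 3286 arm clusters (blue) and 4734 pericentromeric clusters (orange) of chromosomes 1, 3 and 5. Boxes give the median and quartiles and whiskers the 5th and 95th percentiles; in the 4 mutants the arm medians lie at or below 0.25 RPKM, while NRPD1-3xF WT and Col-0 overlap in the arms and NRPD1-3xF WT is higher than Col-0 in the pericentromere.

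Calls were made with limma on log2(RPKM + 1) over all 12939 clusters, at a log2 fold change of at least 1 in size and a Benjamini-Hochberg adjusted p under 0.01. Against Col-0, 3257 arm clusters (99.1%) were lower in *nrpd1-3*, where 97.8% of all clusters tested were called lower. The counts were 3260 (99.2%) in *clsy quad*, against 97.9% of all clusters, and 3260 (99.2%) in NRPD1-3xF AAA-YPMF, against 97.3%. In NRPD1-3xF CYC-AAAA the count was 3262 (99.3%), against 97.8%. The share of arm clusters was close to that of the series as a whole. The median log2 fold change was -4.32, -4.33, -4.11 and -4.26 in the same order, on the log2(RPKM + 1) scale, which understates the change of low clusters. Leaving out 1 Col-0 library lowered these counts to between 2457 and 2644. Against NRPD1-3xF WT, 3141 arm clusters were lower in NRPD1-3xF AAA-YPMF, where 97.6% of all clusters were called lower, and 3139 in NRPD1-3xF CYC-AAAA, where 97.6% were too. In the other direction the counts were 4 (0.0773% of all clusters) and 5 (0.108%).

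The 6 arms behaved alike. In *nrpd1-3* the median cluster had 0.00 RPKM in replicate 1 on every arm and between 0.01 RPKM (5R) and 0.05 RPKM (3L) in replicate 2. In NRPD1-3xF AAA-YPMF the arm medians lay between 0.17 and 0.22 RPKM in replicate 1 and between 0.24 and 0.27 RPKM in replicate 2, and in NRPD1-3xF CYC-AAAA between 0.08 and 0.10 RPKM in both. In Col-0 they lay between 20.0 RPKM (1L) and 24.1 RPKM (3L) in replicate 1. Along the arms, from under 2 Mb to over 8 Mb from the pericentromere, the median member kept between 0.67% and 0.88% of the Col-0 mean in NRPD1-3xF AAA-YPMF replicate 1 and between 0.93% and 1.09% in replicate 2. In NRPD1-3xF CYC-AAAA it kept 0.191% and 0.190% at over 8 Mb, the lowest of the 5 classes in both libraries, and between 0.220% and 0.338% in the others.

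Summed RPKM gave a different picture, with most of the sum at a single microRNA locus. The arm clusters together kept 13.4% ± 1.48 of the Col-0 sum in *nrpd1-3*, 9.98% ± 0.249 in *clsy quad*, 9.72% ± 0.0188 in NRPD1-3xF AAA-YPMF and 14.1% ± 0.103 in NRPD1-3xF CYC-AAAA (SD, n = 2 each). The cluster at MIR163, merged_1_24884060, made up between 77.0% and 84.4% of the arm sum in the mutant libraries, against 3.56% and 4.07% in NRPD1-3xF WT and 3.37% and 3.66% in Col-0. Without it, an alternative chosen after the data were seen, the arms kept 2.20% ± 0.187 in *nrpd1-3*, 1.94% ± 0.101 in *clsy quad*, 2.24% ± 0.108 in NRPD1-3xF AAA-YPMF and 2.41% ± 0.0633 in NRPD1-3xF CYC-AAAA (SD, n = 2 each). Each mutant lay below both Col-0 libraries, with p = 0.333 in a two-sided exact permutation test, the smallest p that 2 against 2 allows.

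Without the MIR163 cluster, the arm sums that remained still differed between arms. On 3L, which holds no member above 100 RPKM in a mutant, 0.341% ± 0.0241 of the Col-0 sum was left in *nrpd1-3*, 0.395% ± 0.0348 in *clsy quad*, 0.828% ± 0.120 in NRPD1-3xF AAA-YPMF and 0.436% ± 0.0278 in NRPD1-3xF CYC-AAAA (SD, n = 2 each). On 5L the values were 4.11% ± 0.0151, 3.37% ± 0.0873, 3.85% ± 0.106 and 3.86% ± 0.181 in the same order (SD, n = 2 each). Of the 708 and 712 RPKM left on 5L in the *nrpd1-3* libraries, the single cluster merged_5_4479376 held 646 and 639 RPKM. The median clusters of 3L and 5L were alike in *nrpd1-3*, at 0.00 RPKM in replicate 1 and 0.05 and 0.04 RPKM in replicate 2. Members with a mean of at least 100 RPKM in a mutant numbered 6, the same 6 in all 4 mutants: merged_1_24884060, merged_5_4479376, merged_5_17230109, merged_5_22322586, merged_1_24720965 and merged_3_17728477. At 24 members, at least 10% of the Col-0 mean was left in all 4 mutants, and 7 of them lay within 500 bases of a microRNA gene.

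Few members were called higher than Col-0 in a mutant. Arm clusters called higher than Col-0 numbered 4 in *nrpd1-3* (0.0927% of all clusters tested were called higher), 4 in *clsy quad* (0.085%), 4 in NRPD1-3xF AAA-YPMF (0.085%) and 5 in NRPD1-3xF CYC-AAAA (0.108%), and they were 5 clusters in all. Without either Col-0 library the count was 1 in *nrpd1-3* and 1 in *clsy quad*, and without Col-0 replicate 2 it was 2 in NRPD1-3xF AAA-YPMF. Of these 5, 3 lay at microRNA genes. Their annotated mature microRNAs, read from TAIR10.1 in DNA letters with the seed (bases 2 to 8) in capitals, share no seed:
miR163, chr1:24884359-24884382, plus strand: tTGAAGAGgacttggaacttcgat
miR848, chr5:4479448-4479469, minus strand: tGACATGGgactgcctaagcta
miR5656, chr1:1727351-1727371, plus strand: aCTGAAGTagagattgggttt

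At 24 bases, miR163 itself has the length of the reads counted here, while miR848 has 22 and miR5656 has 21. The MIR163 gene (AT1G66725, chromosome 1, 24884066 to 24884396) begins 6 bases after the named position of merged_1_24884060. The cluster had 14422 and 16969 RPKM in *nrpd1-3*, 11616 and 10934 in *clsy quad*, 10633 and 10391 in NRPD1-3xF AAA-YPMF, 16510 and 16188 in NRPD1-3xF CYC-AAAA and 4301 and 4534 in NRPD1-3xF WT, against 4813 and 4956 in Col-0. All 8 mutant libraries lay above the 4 others. The log2 fold change was 1.68 ± 0.0976 (SE) in *nrpd1-3*, 1.21 ± 0.0508 in *clsy quad*, 1.11 ± 0.0335 in NRPD1-3xF AAA-YPMF and 1.74 ± 0.0278 in NRPD1-3xF CYC-AAAA, with adjusted p between 2.12e-06 and 0.000171 in limma. Without Col-0 replicate 1 the adjusted p was 0.037 in *nrpd1-3* and 0.0137 in *clsy quad*, and without Col-0 replicate 2 it was 0.0359 and 0.0131. RPKM is relative to a read total of each library, and the sum over all clusters of the series was 6.46%, 4.81%, 5.27% and 7.16% of Col-0 in the 4 mutants. The part of this scaling in the difference was not tested.

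At MIR848 (AT5G13887), which lies within the protein-coding gene AT5G13890, merged_5_4479376 had 646 and 639 RPKM in *nrpd1-3*, 509 and 511 in *clsy quad*, 538 and 484 in NRPD1-3xF AAA-YPMF, 600.5 and 556 in NRPD1-3xF CYC-AAAA and 118 and 156 in NRPD1-3xF WT, against 83.5 and 93.0 in Col-0. It had the highest fold among the 5, with a log2 fold change between 2.52 and 2.85 in the 4 mutants. At MIR5656 (AT1G04423), merged_1_1727121 had 33.3 and 38.8 RPKM in *nrpd1-3*, 26.7 and 30.9 in *clsy quad*, 27.5 and 27.0 in NRPD1-3xF AAA-YPMF and 27.4 and 36.0 in NRPD1-3xF CYC-AAAA, against 13.3 and 13.1 in Col-0. In NRPD1-3xF AAA-YPMF its log2 fold change of 0.99 missed the limit of 1, and without either Col-0 library its adjusted p was over 0.01 in the other 3 mutants, between 0.0437 and 0.0923.

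The other 2 raised members have no microRNA beside them. In an intron of AT5G42950, merged_5_17230109 had 242 and 241 RPKM in *nrpd1-3*, 245 and 193 in *clsy quad*, 225 and 190 in NRPD1-3xF AAA-YPMF and 281 and 299 in NRPD1-3xF CYC-AAAA, against 62.1 and 67.1 in Col-0. It was called in all 4 mutants, although without either Col-0 library only NRPD1-3xF CYC-AAAA kept the call. Beside AT5G55010, 251 bases away, merged_5_22322586 had 325 and 318 RPKM in NRPD1-3xF AAA-YPMF and 438 and 444 in NRPD1-3xF CYC-AAAA, against 161 and 148 in Col-0, with log2 fold changes of 1.05 ± 0.0958 and 1.51 ± 0.0685 (SE; adjusted p = 0.000169 and 2.57e-05 from limma). In *nrpd1-3* it had 286 and 324 RPKM and in *clsy quad* 211 and 237 RPKM, and there it did not reach the limit. Without Col-0 replicate 2 it lost its call in NRPD1-3xF AAA-YPMF, at a log2 fold change of 0.99.

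**Figure D2:**
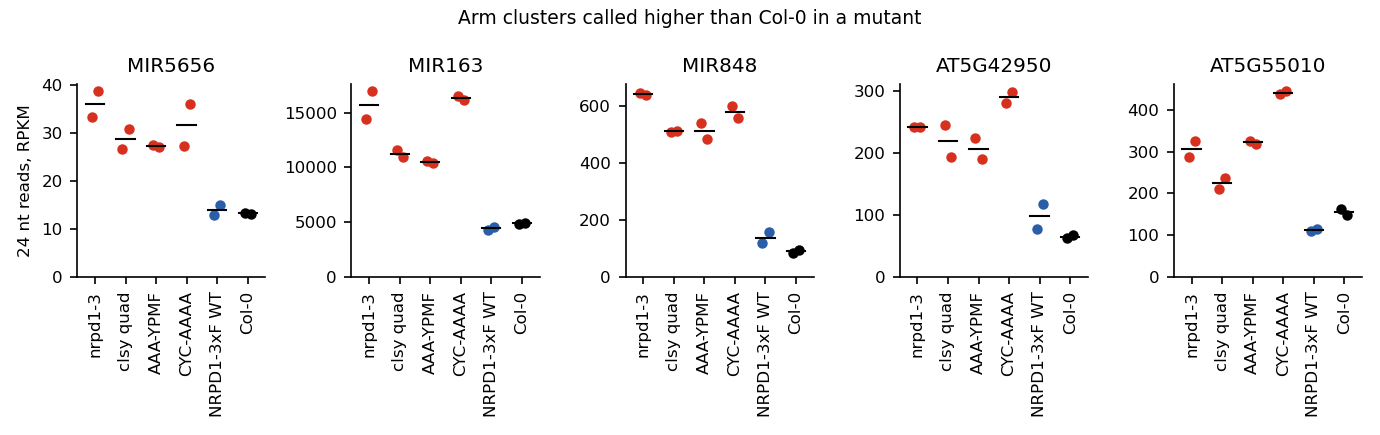
RPKM of 24 nt reads at the 5 arm clusters called higher than Col-0 in at least 1 mutant, titled by the nearest gene, with 1 point per library and a line at the mean of the 2 libraries of each genotype; each panel starts at 0. In every panel the 8 mutant libraries (red) lie above the Col-0 libraries (black), for example between 10391 and 16969 RPKM against 4813 and 4956 RPKM at MIR163.

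Over all 27 members near a microRNA gene, 23 were called lower and 3 higher in *nrpd1-3*, which is 85.2% and 11.1%, against 99.1% and 0.122% of all arm clusters. Their median was 0.24 RPKM in *nrpd1-3*, 0.21 in *clsy quad*, 0.435 in NRPD1-3xF AAA-YPMF, 0.23 in NRPD1-3xF CYC-AAAA and 33.9 in NRPD1-3xF WT, against 41.4 RPKM in Col-0. A pair of members in other non-coding RNA genes, named here after their values were seen, also had over 100 RPKM in every mutant library. In AT1G09805, merged_1_24720965 had 853 and 1012 RPKM in *nrpd1-3*, 659 and 741 in *clsy quad*, 464 and 506 in NRPD1-3xF AAA-YPMF and 879 and 964 in NRPD1-3xF CYC-AAAA, against 489.5 and 518 in Col-0, and it was called in none of the mutants. In AT3G07855, merged_3_17728477 had 116 and 159 RPKM in *nrpd1-3* and 119 and 135 RPKM in NRPD1-3xF AAA-YPMF, against 621 and 513 in Col-0. It was called lower in all 4 mutants, with 24.3% of the Col-0 mean in *nrpd1-3*, 24.6% in *clsy quad*, 22.4% in NRPD1-3xF AAA-YPMF and 30.3% in NRPD1-3xF CYC-AAAA.

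At the clusters that stand for the bulk of the arms, the loss was near complete. The median-level members of the 6 arms, merged_1_7036975 (near SMT2), merged_1_21389844, merged_3_8345308, merged_3_18014801 (near NPC6), merged_5_2186850 and merged_5_17283581, had between 0.00 and 0.68 RPKM in the 8 mutant libraries, against 17.7 to 27.2 RPKM in Col-0. The repeated member merged_5_2186850 shown above was listed at 0 in both *nrpd1-3* and both *clsy quad* libraries and had 0.07 and 0.12 RPKM in NRPD1-3xF AAA-YPMF, 0.28 and 0.00 RPKM in NRPD1-3xF CYC-AAAA and 28.6 and 28.1 RPKM in NRPD1-3xF WT, against 21.3 and 20.2 RPKM in Col-0.

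The second question was whether both motif mutants differ from each other, or keep more than *nrpd1-3*. Called clusters numbered 0 in both directions between NRPD1-3xF AAA-YPMF and NRPD1-3xF CYC-AAAA, in the arms and over all clusters (0%). On the log2(RPKM + 1) scale, a group with both libraries under 1 RPKM cannot be called higher, whatever the ratio. This held at 2990 members (91.0%) for NRPD1-3xF AAA-YPMF and at 3184 (96.9%) for NRPD1-3xF CYC-AAAA, where the lack of calls decides nothing. At an unadjusted p under 0.05 in limma, 576 arm clusters (17.5%) were higher in NRPD1-3xF AAA-YPMF and 45 (1.37%) lower, where 19.4% and 1.14% of all clusters were. The libraries did not overlap at 1305 members (39.7%) with NRPD1-3xF AAA-YPMF higher, against 43% of all clusters. With it lower they did not overlap at 155 (4.72%), against 3.8%. A fit over all 12 libraries called 24 arm clusters higher and 0 lower, and one on clusters averaging 1 RPKM or more called 19 higher and 1 lower. The former pools the spread of nearly empty groups with that of full ones. No share of all clusters is given for either fit, so they do not compare the arms with the series. The residual level was small in both motif mutants. Of the 3286 members, 131 had at least 1 RPKM in both NRPD1-3xF AAA-YPMF libraries and 59 in both NRPD1-3xF CYC-AAAA libraries. The number was 52 in *nrpd1-3* and 58 in *clsy quad*. Of all 12939 clusters, 393, 143, 98 and 122 reached this level in the same order.

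The members with the largest difference between the motif mutants were high in Col-0. They were ranked by fold change on log2(RPKM + 1), which stays small where both mutants are under 1 RPKM. The ranking therefore favours members with a high level. At merged_3_10006169, beside the protein phosphatase gene AT3G27140 and without a single-copy 24-base word in its window, there were 3.90 and 4.80 RPKM in NRPD1-3xF AAA-YPMF, against 0.40 and 0.27 RPKM in NRPD1-3xF CYC-AAAA, a log2 fold change of 2.00 ± 0.130 (SE; adjusted p = 0.0869 from limma). At merged_1_23453053 there were 4.94 and 3.42 RPKM in NRPD1-3xF AAA-YPMF, against 0.49 and 0.33 RPKM in NRPD1-3xF CYC-AAAA, and at merged_5_1409843, in VPS60.2, 4.52 and 3.73 RPKM, against 0.56 and 0.33 RPKM. In the fit over all 12 libraries these 3 were called, with adjusted p between 0.000542 and 0.000575. All 3 had between 145 and 616 RPKM in the Col-0 libraries, and NRPD1-3xF AAA-YPMF kept at most 2.92% of the Col-0 mean.

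The opposite difference was smaller. At merged_1_24714621, in a coding exon of the F-box protein gene AT1G66290, there were 2.19 and 2.22 RPKM in NRPD1-3xF AAA-YPMF, against 5.02 and 6.47 RPKM in NRPD1-3xF CYC-AAAA (log2 fold change -1.07 ± 0.140, SE; adjusted p = 0.15 from limma). At merged_3_7834652, near POP2, there were 0.90 and 0.00 RPKM in NRPD1-3xF AAA-YPMF, against 2.58 and 1.23 RPKM in NRPD1-3xF CYC-AAAA (log2 fold change -1.04 ± 0.466, SE; adjusted p = 0.329 from limma). At merged_5_1515100, in AT5G05130, there were 2.73 and 3.22 RPKM, against 6.18 and 7.64 RPKM (log2 fold change -0.989 ± 0.143, SE; adjusted p = 0.157 from limma). In *nrpd1-3* these 3 had between 1.76 and 5.85 RPKM.

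Against *nrpd1-3*, 0 arm clusters were called in NRPD1-3xF AAA-YPMF, NRPD1-3xF CYC-AAAA or *clsy quad* (0% of all clusters each). Here too, no higher call was possible where both libraries were under 1 RPKM. Such members numbered 2990 in NRPD1-3xF AAA-YPMF, 3184 in NRPD1-3xF CYC-AAAA and 3173 in *clsy quad*. At an unadjusted p under 0.05 in limma, 968 members (29.5%) were higher in NRPD1-3xF AAA-YPMF, against 36.2% of all clusters, and 28 (0.852%) lower, against 0.479%. In NRPD1-3xF CYC-AAAA 247 (7.52%) were higher, against 12.2% of all clusters, and 43 (1.31%) lower, against 0.904%. In *clsy quad* 134 (4.08%) were higher, against 3.93% of all clusters, and 63 (1.92%) lower, against 1.41%. For NRPD1-3xF AAA-YPMF the fit over all 12 libraries called 61 higher and 2 lower, an adjusted p under 0.05 gave 36 and 1, and leaving out replicate 1 or 2 of NRPD1-3xF AAA-YPMF gave 38 and 23 higher. For NRPD1-3xF CYC-AAAA, leaving out its replicate 1 or 2 gave 3 and 5 higher. Whether a small rest of siRNAs remained in NRPD1-3xF AAA-YPMF therefore depended on the test. For these other settings no share of all clusters is given, so they do not compare the arms with the series. The libraries of NRPD1-3xF AAA-YPMF and *nrpd1-3* did not overlap at 1623 members (49.4%) with NRPD1-3xF AAA-YPMF higher, against 57% of all clusters. With it lower they did not overlap at 98 (2.98%), against 1.91%. For NRPD1-3xF CYC-AAAA the counts were 687 higher (20.9%, against 27.7% of all clusters) and 217 lower (6.60%, against 4.27%). For *clsy quad* they were 510 higher (15.5%, against 13.3%) and 256 lower (7.79%, against 6.7%).

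The third question was how well the intact transgene restored the arms. In the median member NRPD1-3xF WT was close to Col-0, with a median log2 fold change of 0.15, but the arms as a sum reached 83.4% ± 4.85 of Col-0, with 86.8% and 80.0% in the libraries, against 103% and 97.3% in the Col-0 libraries (SD, n = 2; p = 0.333 in a two-sided exact permutation test). In the pericentromere the sum was 107% ± 6.54, with 112% and 102%, against 103% and 97.3% (SD, n = 2; p = 0.667 in the same exact permutation test). By arm the percentage lay between 78.7% ± 4.69 (1L) and 90.8% ± 5.15 (5R) (SD, n = 2 each). On every arm, both NRPD1-3xF WT libraries lay below both Col-0 libraries.

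In NRPD1-3xF WT, 472 arm clusters (14.4%) were called lower than Col-0, where 7.76% of all clusters were, and 76 (2.31%) were called higher, where 5.46% were. Without the fold limit, more arm clusters were higher than lower. At an unadjusted p under 0.05 in limma, 1327 (40.4%) were higher, against 57.8% of all clusters, and 894 (27.2%) lower, against 15.6%. The libraries did not overlap at 1649 members (50.2%) with NRPD1-3xF WT higher, against 66.6% of all clusters. With it lower they did not overlap at 1023 (31.1%), against 18.5%. In the arms, small increases were thus more frequent than small decreases, and changes of 2-fold or more were mostly decreases. Compared with the series, the arms held a smaller share of increases and a larger share of decreases by each count. In the pericentromere 3.61% were called lower and 8.30% higher. The per-library difference between the arm and the pericentromere in median log2 fold change was -0.34 and -0.33 in NRPD1-3xF WT, against 0.01 and -0.01 in Col-0 (p = 0.333, two-sided exact permutation test, the smallest possible), and -0.17 on average within deciles of the Col-0 level. The share called lower was between 11.4% (5R) and 17.2% (3L) on the 6 arms and between 12.8% (under 2 Mb from the pericentromere) and 17.2% (6 to 8 Mb) in 5 classes of distance. In the mutants, the same difference of about -1.48 between arm and pericentromere shrank to between -0.04 and 0.01 within deciles of the Col-0 level.

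**Figure D3:**
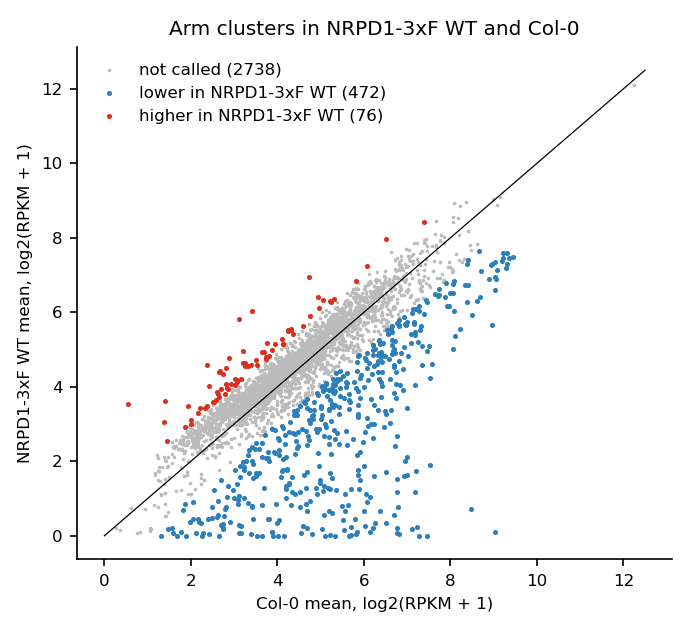
Mean of the 2 NRPD1-3xF WT libraries against the mean of the 2 Col-0 libraries, both as log2(RPKM + 1), for each of the 3286 arm clusters, with the diagonal of equal level. Of these, 472 were called lower (blue) and 76 higher (red) in NRPD1-3xF WT, and part of the lower ones lie near 0 on the vertical axis although Col-0 has siRNAs there.

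The members called lower in NRPD1-3xF WT than in Col-0 differed widely in size of change, with 241 lower by 2- to 4-fold. At 231 members the log2 fold change was -2 or below (4-fold or more), and at 67 it was -4 or below (16-fold or more), which is 7.03% and 2.04% of the arm clusters, against 1.12% and 0.275% of pericentromeric ones. On log2(RPKM + 1), a cluster of low Col-0 level cannot fall that far. The lower quartile and median in Col-0 were 10.7 and 21.5 RPKM in the arms, against 2.98 and 6.45 RPKM in the pericentromere. Fewer pericentromeric clusters could therefore enter these classes, and the shares were not compared at equal Col-0 level. At 112 members (3.41%) both NRPD1-3xF WT libraries were under 1 RPKM, against 1.74% of all clusters and 0.655% of pericentromeric ones. These 112 had Col-0 means between 0.215 and 525 RPKM with a median of 11.0 RPKM, and 57 of them had at least 10 RPKM in Col-0. In single-copy sequence shown above, merged_1_24250883, 447 bases from the gene mtACP2 for a mitochondrial acyl carrier protein, had 0.15 and 0.00 RPKM in NRPD1-3xF WT, against 574 and 476.5 RPKM in Col-0 (log2 fold change -8.93 ± 0.131, SE; adjusted p = 2.61e-19 from limma). The siRNAs of this locus were as low with the intact transgene as in *nrpd1-3*, where both libraries were listed at 0.

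A second locus of this kind, merged_1_19180321, lies 126 bases from UBP6, which encodes a ubiquitin-specific protease. It had 0.81 and 0.46 RPKM in NRPD1-3xF WT, against 365 and 351 RPKM in Col-0, and the groups did not overlap. The third, merged_3_9848096 in the pseudogene AT3G26775, was listed at 0 in both NRPD1-3xF WT libraries, against 177 and 172 RPKM in Col-0. Of the 472 members called lower, 244 had another arm cluster within 5 kb, and at 83 of these (34.0%) a member that near was called lower too, against 329 of 2031 (16.2%) of all arm clusters with such a neighbour. Of the 76 called higher, 51 had a neighbour and 8 (15.7%) lay beside one called higher, against 4.09% of all arm clusters with a neighbour. A read of repeated sequence can fit several neighbours, and the part of its placement was not tested.

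The members higher in NRPD1-3xF WT than in Col-0 were of moderate level. At merged_3_19673016, in a coding exon of the lectin gene AT3G53065, there were 11.0 and 10.2 RPKM in NRPD1-3xF WT, against 0.63 and 0.31 RPKM in Col-0 (log2 fold change 2.99 ± 0.147, SE; adjusted p = 2.14e-12 from limma). At the single-copy merged_1_25577748 shown above, beside the bHLH gene AT1G68240, there were 52.0 and 59.2 RPKM in NRPD1-3xF WT, against 8.11 and 7.23 RPKM in Col-0. At merged_1_9001092, beside SOG1, a NAC transcription factor of the DNA damage response, there were 67.9 and 60.3 RPKM, against 8.97 and 10.5 RPKM. At all 3, the 4 mutants had at most 1.94 RPKM. Only 6 members rose by a log2 fold change of 2 or more.

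Many of the highest members were only partly restored in NRPD1-3xF WT. In each arm, the cluster with the highest Col-0 mean was, apart from MIR163, merged_1_4505225 on 1L, merged_3_5778657 on 3L, merged_3_20029846 on 3R (in a UTR of FLN1, a fructokinase-like gene), merged_5_8813227 on 5L and merged_5_20312647 on 5R (in a coding exon of emb1441). On 1L there were 187 and 166 RPKM in NRPD1-3xF WT, against 641 and 551 RPKM in Col-0 (log2 fold change -1.75 ± 0.0813, SE; adjusted p = 8.44e-13 from limma). The values were 204 and 178 RPKM against 670 and 603 RPKM on 3L, 185 and 166 RPKM against 686 and 620 RPKM on 3R, and 165 and 149 RPKM against 530 and 467 RPKM on 5R, NRPD1-3xF WT first in each pair. The exception was merged_5_8813227, beside the cyclin gene CYCA2;1, with 473 and 461.5 RPKM in NRPD1-3xF WT, against 555 and 516 RPKM in Col-0, which was not called.

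The same profile recurred further down the order. Among the 30 members below the MIR163 cluster in Col-0 level, from 349 to 697 RPKM, NRPD1-3xF WT had under 40% of the Col-0 mean at 23, and the median was 27.5%. Of the 30, 23 had windows of single-copy words throughout. Their medians were 0.153 RPKM in *nrpd1-3*, 1.12 in *clsy quad*, 1.90 in NRPD1-3xF AAA-YPMF, 0.213 in NRPD1-3xF CYC-AAAA and 156 in NRPD1-3xF WT, against 522 RPKM in Col-0. These members were picked by their Col-0 level, which is also the divisor, so their ratio is a description. The highest decile of the arm clusters (329 members, at least 90.1 RPKM) carried 46.5% of the Col-0 arm sum, and 130 of them were called lower in NRPD1-3xF WT.

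The change in NRPD1-3xF WT varied with the Col-0 level and with sequence copy number. From the lowest to the highest decile of Col-0 level, which is also the reference of the fold change, the median log2 fold change of the arm members ran from 0.57 and 0.45 in the NRPD1-3xF WT libraries down to -0.71 and -0.76. When arm and pericentromeric clusters were put into common deciles of the Col-0 level, the arm median was below the pericentromeric one in all 10 deciles in each NRPD1-3xF WT library. By the share of single-copy words, which the Col-0 values do not enter, 16 of 744 members with under 50% of such words were called lower (2.15%), 90 of 1006 with 50 to 90% (8.95%) and 366 of 1536 with 90% or more (23.8%). The share called higher also grew, with 0.941%, 1.59% and 3.45% in the same order, so single-copy members passed the limit more often in both directions. For lower calls the order was the same within each tercile of the Col-0 level: in the highest tercile the shares were 3.92%, 14.1% and 34.2%, and in the lowest tercile 1.76%, 6.92% and 13.7%. In the lowest tercile the shares called higher were 1.76%, 3.46% and 7.94%, and the median log2 fold change at 90% or more single-copy words was 0.40 and 0.27 in the 2 libraries. The mapping assigned reads that fit several copies to a specific location, and the part of this in the order was not tested.

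**Figure D4:**
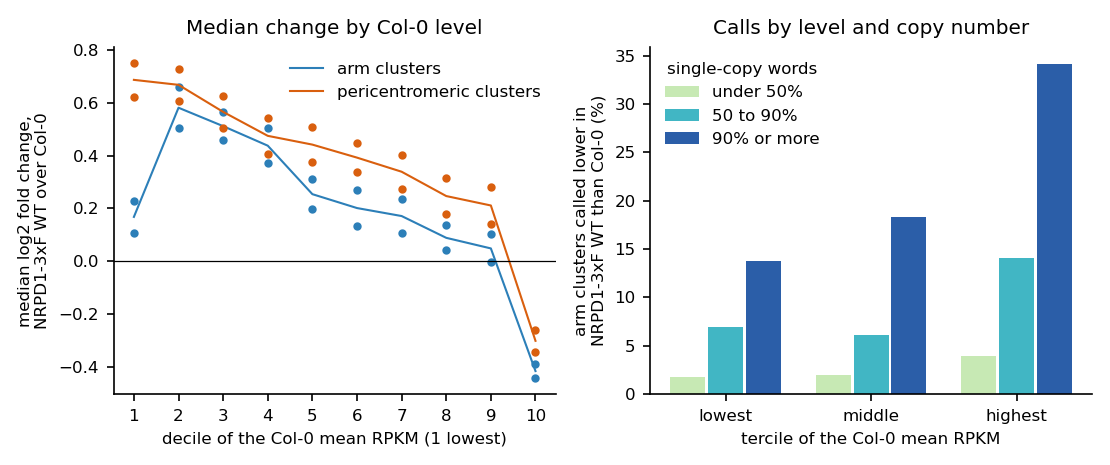
Left, median log2 fold change of NRPD1-3xF WT over the Col-0 mean in each decile of the Col-0 level, for arm (blue) and pericentromeric (orange) clusters, with 1 point per library and a line at the mean of both; the arm line lies below the pericentromeric line in each decile. Right, percentage of arm clusters called lower in NRPD1-3xF WT than in Col-0, by tercile of the Col-0 level and by share of single-copy 24-base words; in the highest tercile it is 3.92%, 14.1% and 34.2% from repeated to single-copy.

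By annotation, the median log2 fold change of NRPD1-3xF WT was 0.41 ± 0.09 at the 132 members in a pseudogene or transposable element gene, 0.22 ± 0.08 at the 365 members more than 2 kb from any protein-coding gene, 0.13 ± 0.09 at the 2209 members within 2 kb of one and 0.14 ± 0.08 at the 509 inside one (SD over the 2 libraries). The first of these classes also had the lowest Col-0 level, with a median of 7.45 RPKM. Among members inside protein-coding genes, those that began in a UTR had 0.07 ± 0.08, those in a coding exon 0.15 ± 0.08 and those in an intron 0.17 ± 0.08 (SD over the 2 libraries), in the same order in both libraries. The differences between these classes were not tested.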

How the data were processed

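Small RNA libraries from flowers of 6 genotypes, 2 libraries each, were analysed. Per the study's methods, the authors trimmed reads with cutadapt (1.18) and aligned them to TAIR10 with ShortStack, which assigned each multi-mapping read to a specific location. They kept perfect matches and single 3′ mismatches, and counted 24 nt reads over 12939 clusters with HOMER (4.10). The deposited RPKM values of the authors, with 2 decimals, were used, and the paper does not name the read total behind them. Counts were not recovered. All 12 value columns were used, and 5 libraries of a *clsy3* experiment were not analysed here.

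From these values, log2(RPKM + 1) was tested with limma (3.58.1, R 4.3.3) with a mean-variance trend and Benjamini-Hochberg adjustment over all clusters, after the functions were tested on simulated data. A cluster was called at a log2 fold change of at least 1 in size and an adjusted p under 0.01. Sums and medians were compared with two-sided exact permutation tests (scipy 1.17.1). The labels only number the replicates, which the paper describes as biological, and do not say whether they are separate lines. The p-values rest on the spread between these libraries. Windows of 300 bases from the named position were read from TAIR10.1 and split into words of 24 bases, counted over the genome on both strands.

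Named clusters were, per arm, the highest and the one nearest the median of Col-0; all called higher than Col-0 in a mutant; the 3 with the largest called change in each direction in NRPD1-3xF WT; and the 3 with the largest and smallest fold of NRPD1-3xF AAA-YPMF over NRPD1-3xF CYC-AAAA among clusters without overlap. Members, rules and lists were chosen with earlier results of these data known. Alternatives were another pseudocount, a filter on low values, one fit over all libraries, no trend, a looser adjusted p, a replicate block, distance and copy-number limits, and leaving out each library.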

Additional observations from a re-analysis of the deposited data

How the results depend on the processing

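Depth per cluster is unknown, and values near 0 RPKM limit every comparison among the mutants. Replicate numbers did not pair the libraries: deviations of same-numbered libraries correlated between -0.02 and 0.05 over 15 genotype pairs, and with the replicate block 3262, 3265, 3263 and 3265 arm clusters were lower in *nrpd1-3*, *clsy quad*, NRPD1-3xF AAA-YPMF and NRPD1-3xF CYC-AAAA (the order used below), with no count moved by over 1.5 times. Over 440 alternatives for 44 comparisons of named clusters, 410 kept their direction and side of the threshold, 19 lost a call, 10 gained one and 1 changed sign: merged_3_8345308, not called in NRPD1-3xF WT, was between -0.13 (without Col-0 replicate 2) and 0.24 when each library was left out.

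At 2 Mb or more from the inner bounds, which leaves fewer clusters, 2099, 2098, 2099 and 2100 were lower than Col-0, 2015 and 2013 were lower than NRPD1-3xF WT in NRPD1-3xF AAA-YPMF and NRPD1-3xF CYC-AAAA, and 43 were higher in NRPD1-3xF WT than in Col-0. With a mean of 1 RPKM or more, calls were 1 lower and 19 higher for NRPD1-3xF AAA-YPMF over NRPD1-3xF CYC-AAAA, and against *nrpd1-3* 2 lower and 23 higher for NRPD1-3xF AAA-YPMF, 2 lower for NRPD1-3xF CYC-AAAA, and 1 lower and 1 higher for *clsy quad*. One fit over all 12 libraries called 24 higher in NRPD1-3xF AAA-YPMF than in NRPD1-3xF CYC-AAAA, and against *nrpd1-3* 2 lower and 61 higher in NRPD1-3xF AAA-YPMF and 1 lower in NRPD1-3xF CYC-AAAA. An adjusted p under 0.05 called 1 lower and 36 higher in NRPD1-3xF AAA-YPMF against *nrpd1-3*. These counts are of arm clusters and are given without the share of all clusters. The causes were not tested.

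Leaving out each library gave 2457 to 3262, 2565 to 3262, 2608 to 3261 and 2504 to 3264 clusters lower than Col-0 and 1 to 6, 1 to 4, 2 to 5 and 4 to 5 higher, with the lowest values without a Col-0 library. For NRPD1-3xF WT it gave 445 to 491 lower and 61 to 111 higher. Against NRPD1-3xF WT it gave 2583 to 3140 lower and 2 to 4 higher in NRPD1-3xF AAA-YPMF (2 without NRPD1-3xF WT replicate 1), and 2463 to 3146 lower and 3 to 5 higher in NRPD1-3xF CYC-AAAA (3 without either NRPD1-3xF WT library). Against *nrpd1-3* it gave 0 to 38 higher in NRPD1-3xF AAA-YPMF and 0 to 5 in NRPD1-3xF CYC-AAAA.

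The median over clusters of each cluster's percentage of its own Col-0 mean was 0.180, 0.288, 1.01 and 0.415 (112 in NRPD1-3xF WT). The percentage of the Col-0 sum was 0.514, 0.592, 1.02 and 0.626 without the 1% highest clusters, 19.8, 14.5, 13.9 and 20.7 at 2 Mb or more, and 2.20, 1.94, 2.24 and 2.41 without the MIR163 cluster. Leaving out each library gave 12.4 to 14.4, 9.72 to 10.3, 9.46 to 9.99 and 13.7 to 14.5, and 79.99 to 86.8 in NRPD1-3xF WT. The arm minus pericentromere difference, in the same order with NRPD1-3xF WT last, was -1.36, -1.31, -1.40, -1.47 and -0.40 with a pseudocount of 0.1, and -1.42, -1.43, -1.43, -1.45 and -0.47 with 90% or more single-copy words, a limit chosen after the data were seen, as was leaving out the MIR163 cluster. With a Col-0 mean of 1 RPKM or more it was -1.47, -1.47, -1.45 and -1.47 in the mutants, and at 2 Mb or more -1.49 in *nrpd1-3*, -1.50 in NRPD1-3xF CYC-AAAA and -0.36 in NRPD1-3xF WT. Within deciles of the Col-0 level it was 0.0096, 0.0064, -0.038, -0.012 and -0.17, so the sign turned in *nrpd1-3* and *clsy quad*. Leaving out each library gave -1.50 to -1.47, -1.50 to -1.48, -1.50 to -1.45, -1.51 to -1.49 and -0.36 to -0.32.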
